A study of Mus musculus with 22 samples.

Results

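Protease inhibitor genes of the esophageal epithelium were followed across the conditions and the differentiation stages of mouse esophagus. The 7 genes were chosen by name from the 17541 genes listed in the count files, and all 7 were found. They are the clade B serpin genes Serpinb3a, Serpinb3c, Serpinb12, Serpinb2 and Serpinb5, the Kazal-type inhibitor gene Spink5, and Slpi, which encodes an inhibitor with whey acidic protein domains. The study isolated esophageal epithelium from C57BL6 mice and profiled it by single cell RNA-Sequencing with inDrop, a droplet method in which each transcript is counted by its unique molecular identifier (UMI). It compared normal epithelium with an allergic inflammation of the esophagus and with chemical carcinogenesis, in 13 mice and 22 libraries.

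The control group held 6 mice, of which 3 (mice 1, 2 and 6) were 3 to 4 months old and 3 (mice 3, 4 and 5) were 18 to 20 months old. Eosinophilic esophagitis (EoE) was modeled in 4 mice over 32 days: for 12 days the scraped ears received MC903, a vitamin D analog, followed by ovalbumin, and from day 15 ovalbumin was given by gavage and at 15 g/L in the drinking water. EoE mice 9 and 10 were 6 to 8 weeks old, and EoE mice 11 and 12 were 19 to 20 months old. Esophageal squamous cell carcinoma (ESCC) was induced in 3 mice (17F, 17M and 8M), 8 to 10 months old, with the carcinogen 4NQO at 100 µg/mL in the drinking water for 16 weeks, followed by 8 weeks without it. Controls were untreated, and no control group matched the age of the ESCC mice.

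The esophageal lining is a stratified squamous epithelium in which basal cells divide, move outward as suprabasal cells and end as flat superficial cells that are shed into the lumen. Shedding and barrier strength depend on serine and cysteine proteases, among them the kallikreins, and on the inhibitors that hold them in check. Clade B serpins act mostly inside the cell, whereas the products of Spink5 and Slpi are secreted. In skin, loss of the Spink5 product LEKTI, an inhibitor of kallikreins, causes Netherton syndrome, a disease of barrier failure with allergy.

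The 5 serpin genes lie in a cluster of related genes on chromosome 1 (GRCm38). Serpinb5 spans chr1:106861173-106883348 and Serpinb12 chr1:106934449-106957080, both on the plus strand. Serpinb3a spans chr1:107045587-107052303 and Serpinb3c chr1:107271201-107278371 on the minus strand, and Serpinb2 spans chr1:107511423-107535478 on the plus strand. Slpi lies at chr2:164354070-164389095 on the minus strand. The 150 bases before the annotated start are shown for these 6 genes, from RefSeq on GRCm38.p6, since genes of the same cluster differed in where in the epithelium they were detected. Capitals mark TATAAA, the letters of a TATA box, and TGANTCA, letters that AP-1 factors can bind, each searched on both strands:
Serpinb3a: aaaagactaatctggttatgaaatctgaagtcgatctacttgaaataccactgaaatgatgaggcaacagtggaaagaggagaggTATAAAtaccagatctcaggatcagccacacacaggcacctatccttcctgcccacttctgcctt
Serpinb3c: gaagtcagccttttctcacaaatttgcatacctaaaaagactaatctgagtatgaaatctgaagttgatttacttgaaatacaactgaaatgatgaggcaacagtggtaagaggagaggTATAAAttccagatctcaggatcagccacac
Serpinb12: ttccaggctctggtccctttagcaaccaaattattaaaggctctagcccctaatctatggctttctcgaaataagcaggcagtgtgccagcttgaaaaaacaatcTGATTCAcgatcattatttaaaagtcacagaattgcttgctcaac
Serpinb2: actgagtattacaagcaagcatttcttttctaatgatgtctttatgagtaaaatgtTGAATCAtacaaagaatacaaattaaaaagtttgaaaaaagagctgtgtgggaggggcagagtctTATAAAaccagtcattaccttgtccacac
Serpinb5: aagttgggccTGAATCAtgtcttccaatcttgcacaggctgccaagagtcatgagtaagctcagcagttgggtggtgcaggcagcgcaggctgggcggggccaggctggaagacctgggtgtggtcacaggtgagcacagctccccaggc
Slpi: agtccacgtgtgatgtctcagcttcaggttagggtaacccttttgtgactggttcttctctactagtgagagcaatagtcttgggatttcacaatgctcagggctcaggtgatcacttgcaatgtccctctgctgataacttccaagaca

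The windows lie at chr1:107052304-107052453 (Serpinb3a), chr1:107278372-107278521 (Serpinb3c), chr1:106934299-106934448 (Serpinb12, the first of 2 starts), chr1:107511273-107511422 (Serpinb2, the first of 2 starts), chr1:106861025-106861174 (Serpinb5) and chr2:164356508-164356657 (Slpi). The spans above come from another annotation than the windows, and the Slpi window lies wholly inside the Slpi span. TATAAA was found in the windows of Serpinb3a, Serpinb3c and Serpinb2, against 7.57% of 32851 windows of this length over all genes, and TGANTCA in those of Serpinb12, Serpinb2 and Serpinb5, against 4.24%. Before the second starts of Serpinb12 and Serpinb2, TGANTCA was not found, and TATAAA was found for Serpinb2 alone. Neither string was found before Slpi. Another string that was searched, GAGGAA, was found in none of these windows, against 14.5% of all windows. Over 216 aligned bases of the upstream sequence, Serpinb3a and Serpinb3c were identical at 94.0%, whereas Serpinb3a and the other 4 genes were identical at 44 to 47.6% of aligned bases. The transcripts of Serpinb3a and Serpinb3c also share stretches of sequence. Of the 31-base words in the last 300 bases of their transcripts, which a method that primes at the poly(A) tail mainly reads, 11.1% were shared, so that some reads of the pair could not be assigned to 1 of them. Serpinb3a shared 3.33% of these words with the related gene Serpinb3b, whose annotated span runs across Serpinb3c. The counts of these genes are uncertain to that extent.

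The deposited cells number 1500 per condition. Cells with 250 to 3500 genes and 100 to 9500 UMIs, the limits stated in the study's methods, that no marker list called non-epithelial were used: 1493 control, 1472 ESCC and 143 EoE cells. Of the 1500 deposited EoE cells only 144 lay within these limits, against 1500 control and 1494 ESCC cells, so the comparison of EoE with controls is also given with all deposited cells. They held 1744511, 5080711 and 97975 UMIs, or 111043 to 427752 per control mouse, 1240388 to 2103543 per ESCC mouse and 6245 to 41909 per EoE mouse, and EoE mouse 11 kept 11 cells. In a group without a UMI, 3 UMIs set a limit of 1.72 CPM (a gene's UMIs over all UMIs of the mouse, on the usual counts-per-million scale) in controls, 0.591 CPM in ESCC and 30.6 CPM in EoE. Such limits cover counting error alone. The libraries of a mouse shared 239 cell barcodes over 9 pairs of libraries (4 to 52 a pair), against 45 over 222 pairs of libraries from different mice, so libraries were added per mouse, and each result was also computed with each barcode of a mouse used once. Levels are given as CPM of the mouse's own UMIs. Log2 fold changes come from edgeR's quasi-likelihood test on UMIs summed per mouse, with library sizes scaled by TMM factors (0.76 to 0.78 in ESCC, 0.83 to 0.96 in controls and 1.08 to 2.46 in EoE), so a fold can differ from the ratio of CPM means. ESCC also differed from the controls in age, which cannot be told apart from the condition, EoE mice had 1 library each where the others had 2, and the conditions differed in depth. In such sums fewer cells of a stage and less RNA per cell cannot be told apart. Immune markers were at 0 UMIs in EoE, at 0.0155% of UMIs or less in ESCC and at 0.00295% or less in controls. Immediate early genes, which dissociation can induce, held 1.27 to 1.88% of UMIs in controls, 0.678 to 1.04% in EoE and 0.58 to 0.797% in ESCC, and their part in the results was not tested.

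In normal epithelium, 4 of the genes were concentrated in the outermost cells. Control cells were grouped into 5 clusters without the 7 genes and the other inhibitors, and the clusters were ordered by Krt5, a keratin of basal cells, and Krtdap, a gene of differentiating keratinocytes. Clusters 1 and 3 had high Krt5 (8558 and 8479 CPM) and low Krtdap (234 and 211 CPM), and are called basal here. Cluster 2 lay in a strip where both were similar and is called suprabasal. Clusters 4 and 5 lay above the strip, with 680 and 267 CPM of Krt5 and 12281 and 22908 CPM of Krtdap.

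Slpi, whose product inhibits neutrophil elastase and related proteases, was nearly limited to cluster 5, the cells with the most Krtdap. Of its 978 UMIs in control cells, 924 fell in cluster 5 (3476 CPM over all its cells), although that cluster held 154 of the 1493 cells. Cluster 4, also above the strip, had 7 UMIs (20.2 CPM). In the 4 mice with 10 or more cells in cluster 5, Slpi was at 2689, 4170.3, 2787.5 and 5173 CPM (mice 1, 4, 5 and 6), and all 4 lay above every mouse of the other clusters.

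Spink5 appeared earlier on the same path. It was at 14.9 and 32.7 CPM in the basal clusters, 272 CPM in cluster 2, 714 CPM in cluster 4 and 3449 CPM in cluster 5, counted over all control cells. Serpinb12, which encodes an inhibitor of trypsin-like proteases, followed the same order with 25.5, 10.9, 163, 527 and 3965 CPM. Serpinb3a, a mouse counterpart of the human squamous cell carcinoma antigens, gave 19.1, 14.6, 106, 423 and 3788 CPM. In the pooled counts, all 3 genes were thus lowest in the 2 basal clusters and higher at each step from cluster 2 to cluster 5.

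Serpinb2 and Serpinb5 were already present in basal cells. Serpinb2 encodes plasminogen activator inhibitor 2, an inhibitor of urokinase, and was at 97.9 and 40.0 CPM in the basal clusters, 160.5 in cluster 2, 199 in cluster 4 and 312 CPM in cluster 5. Serpinb5 encodes maspin, a serpin that does not inhibit proteases in the usual way, and was at 545 and 491, 626, 924 and 828 CPM in the same order. The ranges over mice of Serpinb2 and of Serpinb5 overlapped between neighboring clusters. Serpinb3c had 545 CPM in cluster 5 and 75.1 CPM or less elsewhere, and most of these counts came from control mouse 4.

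**Figure D1:**
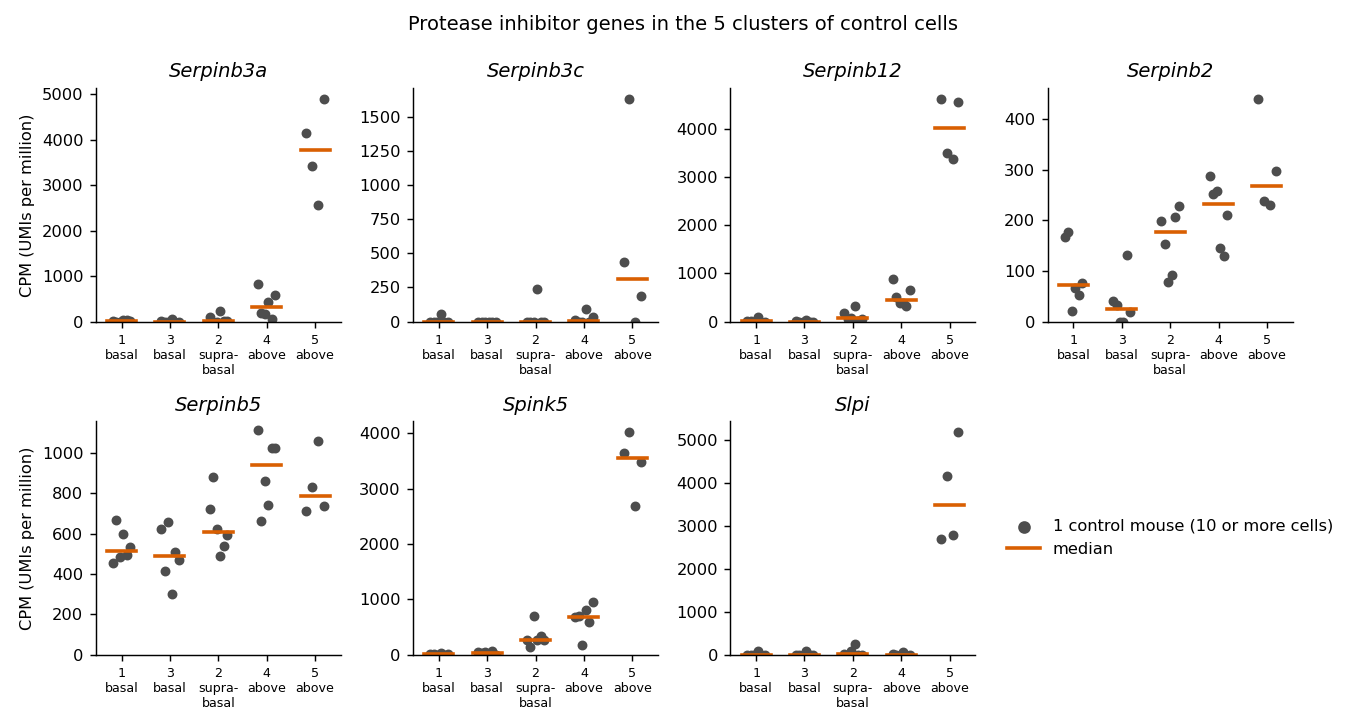
CPM of each gene in the 5 clusters of control cells, ordered from basal to above the strip; points are control mice with 10 or more cells in the cluster and lines are medians. Slpi points of cluster 5 (2689 to 5173 CPM) stand apart from all others, whereas Serpinb5 stays between 299.8 and 1115 CPM throughout.

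Summed per mouse and class, all 6 genes that could be tested were higher above the strip than in basal cells of the same mice (edgeR with mouse as a block; adjusted p below), beside 28.7% of the 2813 genes tested that were higher and 29.3% that were lower. Serpinb3c had too few UMIs for this test. Serpinb12 was at 1535 ± 875 CPM above the strip and 16.9 ± 31.4 CPM in basal cells (SD, n = 6), a log2 difference of 6.40 (SE 0.24, adjusted p = 6.47e-42). The differences of Serpinb3a (6.35, SE 0.25, adjusted p = 8.62e-41), Spink5 (6.18, SE 0.20, adjusted p = 5.22e-47) and Slpi (6.15, SE 0.30, adjusted p = 4.78e-33) were of like size. Those of Serpinb2 (1.74, SE 0.24, adjusted p = 1.21e-09) and Serpinb5 (0.95, SE 0.12, adjusted p = 6.56e-11) were smaller. In control mice 2 and 3 Slpi was at 0 UMIs in both classes, and its 15 basal UMIs came from mouse 4 alone.

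Seen as shares, the class above the strip held 38.4% of control UMIs but 93.3 to 96.0% of those of Spink5, Serpinb12, Slpi and Serpinb3a, and 57.8% of those of Serpinb2 and 50.3% of those of Serpinb5. Suprabasal cells were already higher than basal cells in 5 of the 6 genes, beside 10.8% of genes higher and 10.8% lower. Spink5 had the largest step among the 6 (log2 2.96, SE 0.34, adjusted p = 9.02e-12 by edgeR), followed by Serpinb12 (2.38, SE 0.46, adjusted p = 2.77e-05), Serpinb3a (2.09, SE 0.50, adjusted p = 0.000687), Slpi (1.87, SE 0.60, adjusted p = 0.0154) and Serpinb2 (1.21, SE 0.31, adjusted p = 0.00154). Serpinb5 differed by 0.23 (SE 0.15, adjusted p = 0.313). Without the mouse in the model, 3 genes were called, and the Slpi and Serpinb3a counts of suprabasal cells came largely from mouse 4. In suprabasal cells Slpi had 27 UMIs in mouse 4 and 0 in mice 1, 2, 5 and 6.

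Control mice differed from each other far more in some of the genes than in others. Serpinb5 lay between 594 and 720.3 CPM in the 6 mice (675 ± 50.0, SD). Slpi was at 569, 0, 9.01, 694, 429 and 1039 CPM in mice 1 to 6. Mice 2 and 3, 1 young and 1 old, had 0 and 1 Slpi UMI, and both libraries of each were at or near 0.

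The same 2 mice were the lowest of the controls in Serpinb3a (162 and 81.0 CPM), Serpinb12 (196 and 117 CPM) and Spink5 (260 and 225 CPM). They also had few superficial cells. Superficial markers such as the Sprr genes held 0.0717 and 0.0297% of their UMIs, against 0.413 to 0.711% in the other 4 controls, and cluster 5 held 7 and 1 of their cells. In those 7 cells of mouse 2, Slpi was at 0 UMIs, which allows up to 329 CPM, while Serpinb3a had 27 UMIs (2957 CPM), Spink5 22 and Serpinb12 20.

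Serpinb3c was the least even of the 7. It was at 325 CPM (139 UMIs) in control mouse 4, 94.4 CPM in mouse 1, 44.1 CPM in mouse 6 and at 0 UMIs in mice 2, 3 and 5. Mouse 5 lacked it although its Serpinb3a was at 419 CPM. The 2 libraries of mouse 4 gave 70 and 69 UMIs, so the level did not come from 1 library.

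Between old and young controls none of the 7 genes was called by edgeR, and none by DESeq2, beside 0.0777% of 5149 genes called higher and 0.0194% called lower in old mice. At an unadjusted p under 0.05, 1 of the 7 was counted by edgeR. This was Serpinb2, at 111 ± 24.7 CPM in old and 184 ± 38.7 CPM in young controls (SD, n = 3 each; log2 difference -0.66, SE 0.25, adjusted p = 0.851), and its groups did not overlap. Serpinb3c, Slpi and the other genes had mice near 0 in both age groups or overlapped between them.

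**Figure D2:**
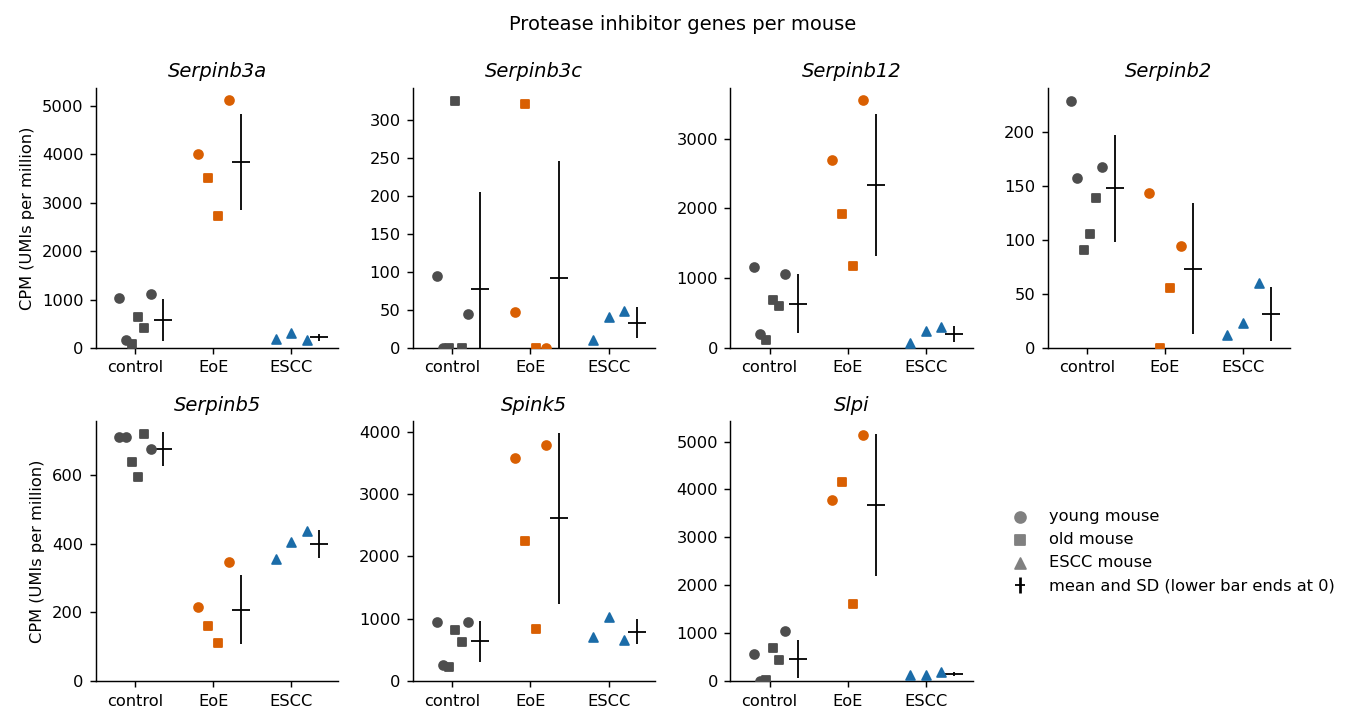
CPM of each gene in every mouse by condition, with circles for young, squares for old and triangles for ESCC mice; the black mark and bar are the mean and SD of the group. All 4 EoE mice lie above all 6 controls in Serpinb3a, Serpinb12 and Slpi, and below them in Serpinb5.

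EoE, modeled by allergen exposure, is marked in patients by barrier defects of the esophageal lining. The EoE mice had higher Serpinb3a, Slpi, Spink5 and Serpinb12 and lower Serpinb5 than controls, so that 4 of the 7 genes rose and 1 fell (edgeR), beside 9.48% of 5866 genes tested that rose and 25% that fell. Over all genes tested the median log2 fold change was -0.75, and that of the 7 genes was 1.71. Markers of immune cells, eosinophils and mast cells were at 0 UMIs in the EoE cells used. Those of endothelium had 3, 3, 1 and 5 UMIs in EoE mice 9 to 12, against 4 UMIs in control mouse 1 and 0 in the other 5 controls, and their part in the results was not tested.

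Serpinb3a was at 5116, 4009, 3523 and 2728 CPM in EoE mice 9, 10, 11 and 12, and at 1038, 162, 81.0, 648, 419 and 1112 CPM in control mice 1 to 6. The lowest EoE mouse was thus above the highest control. The share of all genes without overlap between groups was not computed, here and below. The log2 fold change was 2.5 (SE 0.39, adjusted p = 1.1e-05 by edgeR), or 5.65-fold.

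Slpi was at 5148, 3770.1, 4163 and 1614 CPM in the 4 EoE mice, all above the highest control (1039 CPM). Its log2 fold change was 2.72 (SE 0.53, adjusted p = 0.000212 by edgeR), or 6.58-fold, and DESeq2 gave 2.54 with an adjusted p of 0.0633. Neutrophils also make Slpi. Their 5 markers had 0 to 2 UMIs per EoE mouse. These were 0 to 0.016% of UMIs, against 0 to 0.00126% in controls, and their part in the Slpi level was not tested.

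Serpinb12 was at 3547, 2696, 1922 and 1169 CPM in EoE and at 117 to 1157.5 CPM in controls (median 640.0), without overlap. It rose by 1.71 on the log2 scale (SE 0.43, adjusted p = 0.00296 by edgeR), while DESeq2 gave 1.46 with an adjusted p of 0.0776. Without EoE mouse 9 the log2 fold change was 1.28 (edgeR adjusted p = 0.0577).

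Spink5 was at 3798 and 3579 CPM in the young EoE mice 9 and 10 and at 2242 and 835 CPM in the old EoE mice 11 and 12, against 951, 260.2, 225, 811, 628 and 948 CPM in control mice 1 to 6. Mouse 12 lay within the controls and the other 3 above them. The log2 fold change was 1.88 (SE 0.35, adjusted p = 0.000126 by edgeR), or 3.67-fold. With age group as a term among control and EoE mice, it was 1.81 (adjusted p = 9.39e-06 by edgeR). That term counts EoE mice of 6 to 8 weeks and controls of 3 to 4 months both as young, so it does not adjust for this difference.

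Serpinb5 went the other way, at 345, 215, 160.1 and 111 CPM in EoE mice 9 to 12 and at 594 to 720.3 CPM in controls, without overlap. It fell by 1.71 on the log2 scale (SE 0.30, adjusted p = 4.17e-05 by edgeR), which is 0.96 below the median of all genes. Serpinb2 was at 94.2, 143, 0 and 55.7 CPM in EoE and at 90.1 to 229 CPM in controls, overlapping, with a log2 fold change of -0.76 (SE 0.64, adjusted p = 0.37 by edgeR). Serpinb3c had 4 UMIs over the whole EoE group, 2 each in mice 10 and 11, and its log2 fold change of -1.40 had an SE of 1.68 (adjusted p = 0.535 by edgeR). Serpinb2 was called lower in EoE with all deposited cells (-1.38, adjusted p = 0.0467 by edgeR), and Serpinb3c with no filter on low counts (-1.74, adjusted p = 0.0374 by edgeR).

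The 143 EoE cells used, of 1500 deposited, held a larger share of differentiated cells than the controls. Whether this holds among the other deposited EoE cells was not tested. Cells above the strip were 46.3 to 54.5% of the EoE cells used and 17.9 to 36.8% of control cells, and basal cells 7.32 to 24.6 and 42.2 to 68.6%. The extremes rest on few cells: mouse 11 had 6 cells above the strip and mouse 9 had 3 basal cells. Krt5 fell by 3.60 on the log2 scale in EoE (adjusted p = 3.85e-10 by edgeR), and Krtdap differed by 0.07 (adjusted p = 0.846). The comparison was therefore repeated among cells above the strip, where EoE mice 9, 10 and 12 had 19, 27 and 17 cells and mouse 11 had too few.

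Above the strip, 3 of the 7 genes were higher in EoE than in controls and 1 was lower, beside 9.93% of 3000 genes higher and 20.1% lower. Serpinb3a was at 6993, 5653 and 4694 CPM in EoE mice 9, 10 and 12 and at 299.6 to 2518 CPM in controls, a log2 difference of 1.81 (SE 0.39, adjusted p = 0.000673 by edgeR). Slpi was at 7399, 5317 and 2896 CPM and at 0 to 2360.3 CPM in controls, a difference of 2.04 (SE 0.55, adjusted p = 0.00536). The EoE mice did not overlap the controls in either gene.

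Spink5 above the strip was at 5188, 4980.2 and 1198 CPM in EoE mice 9, 10 and 12 and at 533 to 2108 CPM in controls, with mouse 12 among the controls (log2 1.2, SE 0.37, adjusted p = 0.0148 by edgeR). Serpinb12 differed by 1.03 (SE 0.41, adjusted p = 0.0581 by edgeR). Serpinb5 was at 316, 303 and 99.9 CPM against 753 to 1038 CPM (log2 -1.87, SE 0.34, adjusted p = 8.37e-05 by edgeR). Without EoE mouse 9 or 10, the calls of Slpi (log2 1.63 and 1.87) and Spink5 (0.89 and 0.80) were lost. Superficial markers were at 10187 to 25040 CPM above the strip in EoE and at 10180 to 16100 CPM in controls other than mice 2 and 3, which had 2587 and 899 CPM.

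With all 1500 deposited EoE cells in place of the 143, the log2 fold changes of Serpinb3a (1.35) and Slpi (1.56) still passed, and those of Serpinb12 (0.61, adjusted p = 0.302 by edgeR) and Spink5 (0.86, adjusted p = 0.0842 by edgeR) did not. The old EoE mice then overlapped the controls: mice 11 and 12 had 536 and 751 CPM of Serpinb3a and 585 and 431 CPM of Slpi, against 1982 and 2265 CPM and 1947 and 2201 CPM in the young mice 9 and 10. Thinned to the lowest total of UMIs, all 4 rises were called (log2 2.05 to 3.2). Without control mice 2 and 3, an alternative chosen after seeing the data, all 4 genes rose (log2 1.29 for Serpinb12, 2.06 for Serpinb3a, 2.20 for Slpi and 1.52 for Spink5).

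**Figure D3:**
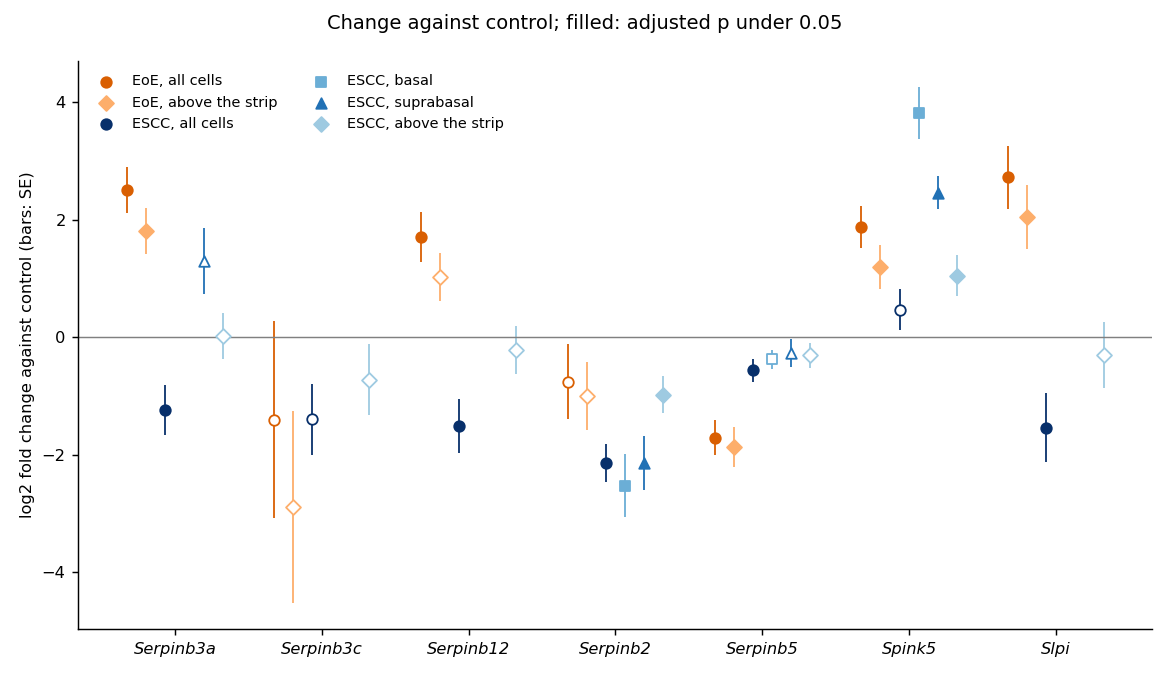
Log2 fold change against controls of each gene in EoE and ESCC, over all cells and by class, with bars for the SE and filled points for an adjusted p under 0.05 (edgeR). Serpinb3a, Serpinb12, Slpi and Spink5 lie above 0 in EoE, and Spink5 lies furthest above 0 in basal cells of ESCC.

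ESCC mice were compared with the same controls. Of the 7 genes 5 fell and none rose over all cells (edgeR), beside 16.8% of genes that fell and 17.8% that rose, and the median log2 fold change was -1.39 for the 7 genes and 0.01 for all genes tested. ESCC and EoE share these controls, so the 2 sets of values are set side by side and not correlated.

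Serpinb2 had the largest fall of the 5 called. It was at 11.5, 23.3 and 59.7 CPM in ESCC mice 17F, 17M and 8M, all below the lowest control (90.1 CPM). The log2 fold change was -2.14 (SE 0.32, adjusted p = 4.45e-06 by edgeR), or 4.40-fold lower.

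Serpinb5 was at 356, 406 and 438 CPM in ESCC, also below every control (594 to 720.3 CPM), and fell by 0.56 on the log2 scale (SE 0.19, adjusted p = 0.0209 by edgeR). With RLE size factors in place of TMM the fall was 0.45 (adjusted p = 0.0612 by edgeR). Serpinb12 (66.8, 239 and 295 CPM in mice 17F, 17M and 8M), Serpinb3a (189, 304 and 171 CPM) and Slpi (118, 126 and 191 CPM) lay within the range of the controls, above mice 2 or 3 and below the rest, except that Serpinb12 of mouse 17F was below all controls. They fell by 1.51 (SE 0.46, adjusted p = 0.0108), 1.24 (SE 0.43, adjusted p = 0.0245) and 1.54 (SE 0.59, adjusted p = 0.0408) on the log2 scale by edgeR. DESeq2 did not call these 3 (adjusted p = 0.163, 0.252 and 0.461), and without ESCC mouse 17F only Serpinb2 was called by edgeR.

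Without control mice 2 and 3, whose superficial markers were low, Serpinb3c fell in ESCC along with the genes above (log2 -1.77, adjusted p = 0.00466 by edgeR). This alternative was chosen after seeing the data. With all controls Serpinb3c was at 9.79, 40.4 and 48.4 CPM in ESCC, between controls at 0 and mouse 4, and had a log2 fold change of -1.39 (SE 0.60, adjusted p = 0.0728 by edgeR). Spink5 did not fall: it was at 704, 1023 and 649.8 CPM, near the upper controls, with a log2 fold change of 0.47 (SE 0.35, adjusted p = 0.322 by edgeR).

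The ESCC cells were shifted toward basal cells. Basal cells were 65.3 to 74.7% of ESCC cells and cells above the strip 7.19 to 16.6%, and the latter held 13.8% of ESCC UMIs against 38.4% of control UMIs. Krt5 rose by 1.06 on the log2 scale (adjusted p = 0.000994 by edgeR) and Krtdap fell by 1.08 (adjusted p = 0.00518). The 3 classes were therefore compared on their own, although ESCC and control cells of a class differed in Krt5 or Krtdap (values below).

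In basal cells the largest difference among the tested members was a rise of Spink5. It was at 266, 512 and 109 CPM in ESCC mice 17F, 17M and 8M (324, 722 and 83 UMIs) and at 25.2, 17.8, 14.4, 45.7, 24.8 and 7.68 CPM in control mice 1 to 6 (1 to 8 UMIs). The lowest ESCC mouse was above the highest control. The log2 fold change was 3.81 (SE 0.44, adjusted p = 4.58e-07 by edgeR), or 14.1-fold, beside 16.7% of 3604 genes higher and 14.9% lower in ESCC basal cells.

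Spink5 was also higher in the ESCC cells classed as suprabasal, at 1006, 1489 and 626 CPM against 98.9 to 294 CPM in the 5 controls with enough cells. The log2 fold change was 2.46 (SE 0.27, adjusted p = 7.63e-09 by edgeR), beside 20.9% of 1172 genes higher and 17.3% lower. In cells classed as above the strip, Spink5 was at 2634, 3390.3 and 2231.5 CPM against 533 to 2108 CPM. There the log2 fold change was 1.05 (SE 0.35, adjusted p = 0.0256 by edgeR), beside 15.7% of 3000 genes higher and 12.1% lower. In each of the 3 classes every ESCC mouse was above every control. The call above the strip was lost without ESCC mouse 17M (log2 0.88, edgeR adjusted p = 0.0891).

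**Figure D4:**
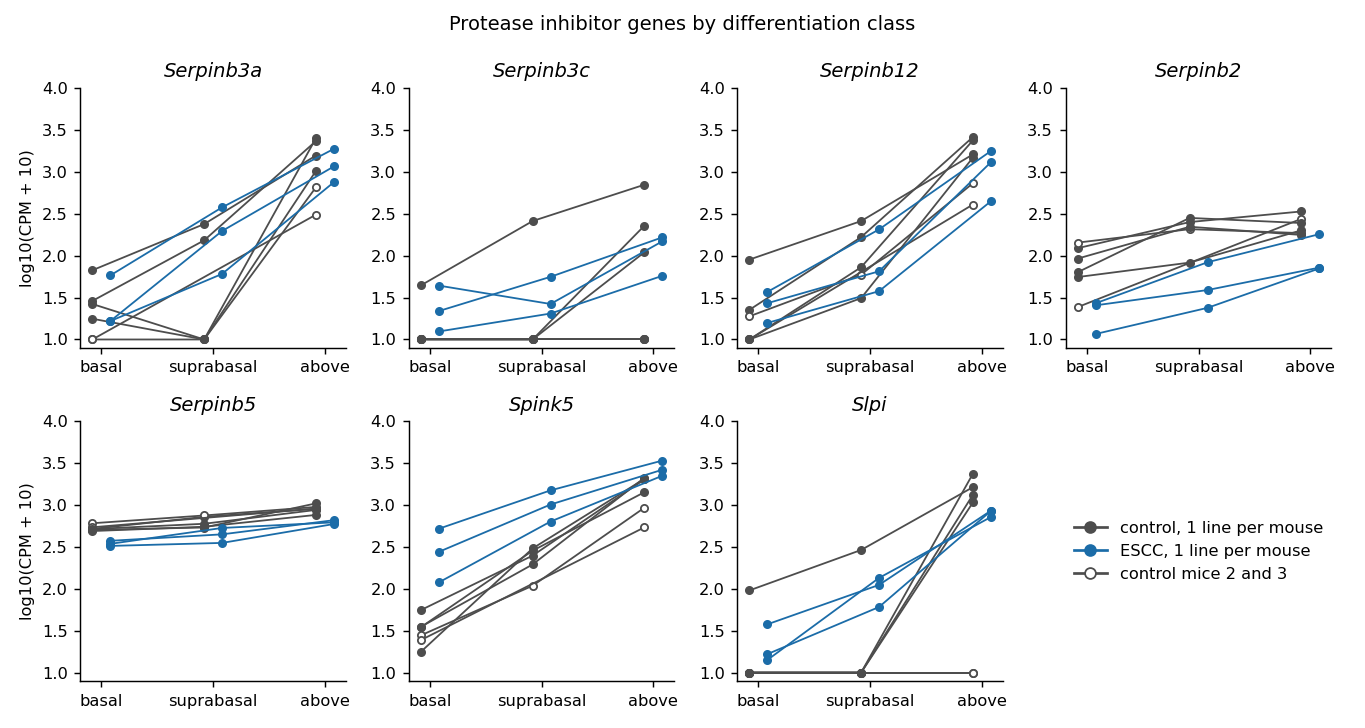
log10(CPM + 10) of each gene in basal and suprabasal cells and in cells above the strip, with 1 line per control or ESCC mouse and open points for control mice 2 and 3, which had few superficial cells. The ESCC lines of Spink5 lie above the control lines in all 3 classes, and those of Serpinb5 lie below them.

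The rise of Spink5 was larger in basal cells than above the strip. A test of the difference itself, with mouse as a block, gave -2.71 on the log2 scale (SE 0.34, adjusted p = 4.72e-08 by edgeR), and 1 of the 7 genes, Spink5, was called, beside 1.01% of 4476 genes called higher and 2.19% called lower. The difference was 1.39 for Serpinb2 (adjusted p = 0.0758) and -2.0 for Serpinb3c (adjusted p = 0.0904). Without control mouse 4, Slpi (-5.51, adjusted p = 0.0195 by edgeR) and Serpinb12 (-2.25, adjusted p = 0.0485 by edgeR) were called as well. In joint clusters of both conditions no ESCC cells lay above the strip, so this contrast could not be repeated there. As shares, basal cells held 27.0% of the Spink5 UMIs of ESCC and 1.49% of those of controls, while cells above the strip held 45.6 and 93.3%.

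The other genes of outer cells were at low levels in ESCC basal cells. Slpi was at 4.11, 27.6 and 6.58 CPM there in mice 17F, 17M and 8M, Serpinb12 at 5.75, 26.9 and 17.1 CPM, and Serpinb3a at 6.57, 48.2 and 6.58 CPM. All lay below control mouse 4, the highest control, while the other 5 controls were at 0 in Slpi and at up to 12.6 CPM in Serpinb12 and 18.9 CPM in Serpinb3a. The counts were too low for a test. For each UMI of these 3 genes together, ESCC basal cells held 16.2, 4.98 and 3.61 UMIs of Spink5 in mice 17F, 17M and 8M, against 1.15, 0.754 and 0.774 UMIs above the strip in the same mice. In suprabasal cells the ratio was 2.96, 2.24 and 4.0. All 3 mice thus had more Spink5 relative to the other 3 genes in basal cells than above the strip.

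**Figure D5:**
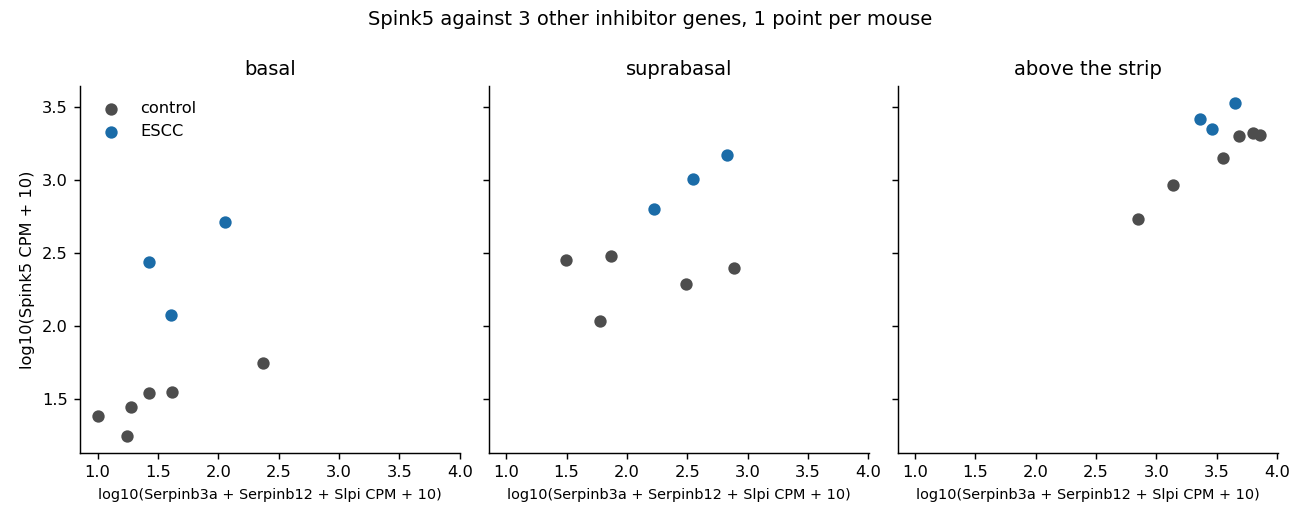
log10(CPM + 10) of Spink5 against that of Serpinb3a, Serpinb12 and Slpi summed, 1 point per control or ESCC mouse in each class. In basal and suprabasal cells the ESCC points lie above all control points on the Spink5 axis while they share the range of the other axis.

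Classes were assigned from the nearest control cells of other mice, so the ESCC cells of a class need not meet the strip rule themselves. ESCC cells above the strip kept basal features. Their Krt5 was at 6220, 6274 and 2026 CPM in mice 17F, 17M and 8M, against 365 to 1165 CPM in controls. Their Krtdap was at 7167, 11094 and 11480.5 CPM, against 12049 to 17989 CPM in controls. In 17F the 2 genes were thus at similar levels. Superficial markers of these cells were at 1172 to 2286 CPM against 899 to 16100 CPM in controls. Above the strip 7 of 8 superficial markers fell in ESCC (median log2 -3.07). Suprabasal ESCC cells had 11250, 12120 and 8452 CPM of Krt5 in mice 17F, 17M and 8M, against 4139 to 6538 CPM in controls. Their Krtdap was at 3108, 4041 and 2062 CPM, against 2374 to 4226 CPM in controls. Basal ESCC cells had 251 to 1148 CPM of Krtdap, against 35.6 to 617 CPM in controls. Comparisons within a class were thus not matched in these 2 genes. Clustered jointly, control and ESCC cells hardly mixed: 5 of 9 clusters held 98.5 to 100% ESCC cells and 4 held 0 to 0.483%, so that cells of a class from the 2 conditions lay in different clusters. With these clusters in place of the classes, basal Spink5 rose by 4.09 on the log2 scale and Serpinb5 fell by 0.45 (adjusted p = 0.0355 by edgeR).

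Serpinb2 fell in every class of ESCC. In basal cells it was at 1.64, 15.6 and 17.1 CPM in mice 17F, 17M and 8M and at 14.4 to 134 CPM in controls, where mouse 3 overlapped (log2 -2.53, SE 0.53, adjusted p = 0.000913 by edgeR). In suprabasal cells the log2 fold change was -2.14 (SE 0.46, adjusted p = 0.000342), with 13.9 to 73.7 CPM in ESCC and 72.9 to 273 CPM in controls. Above the strip it was -0.98 (SE 0.32, adjusted p = 0.0195 by edgeR), and this call was lost without control mouse 1 or ESCC mice 17F or 17M (log2 -0.75, -0.65 and -0.72). In basal cells without control mouse 1, 2 or 5 the gene had too few UMIs to be tested.

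Above the strip, 3 of the genes that fell over all ESCC cells overlapped the controls and were not called. Serpinb3a differed by 0.02 (SE 0.39), Serpinb12 by -0.22 (SE 0.41) and Slpi by -0.30 (SE 0.56) on the log2 scale, with adjusted p of 0.986, 0.745 and 0.741 by edgeR. Slpi was at 709, 846 and 840.1 CPM in ESCC mice 17F, 17M and 8M, between the controls at 0 (mice 2 and 3) and the others (1065 to 2360.3 CPM). Serpinb3a in suprabasal cells was at 187, 368 and 50.6 CPM in ESCC and 0 to 229 CPM in controls (log2 1.30, SE 0.56, adjusted p = 0.0661 by edgeR). It was called without control mouse 4 (2.46, adjusted p = 0.00453 by edgeR) and without ESCC mouse 8M (1.65, adjusted p = 0.00159 by edgeR).

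Serpinb5 in ESCC was below every control in all 3 classes on the CPM scale, at 315 to 364 against 480 to 597 CPM in basal cells. On the scale of the model, which allows for the ESCC libraries' TMM factors, the log2 differences were -0.38 in basal cells, -0.27 in suprabasal cells and -0.31 above the strip, with adjusted p of 0.0733, 0.397 and 0.302 by edgeR. In basal cells of 17M Serpinb3c had 48 UMIs (34 CPM), against 3 UMIs in 17F and 9 in 8M, and among controls basal UMIs were seen in mouse 4 alone.

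Set against each other, EoE mice had more of 4 members than ESCC mice. Slpi, Serpinb3a, Serpinb12 and Spink5 were higher in EoE and Serpinb5 was lower, beside 11.7% of 5866 genes higher and 29.9% lower in EoE, with a median of -0.81 over all genes. The log2 differences were 4.26 for Slpi (SE 0.70, adjusted p = 1.58e-05), 3.73 for Serpinb3a (SE 0.51, adjusted p = 7.87e-07), 3.22 for Serpinb12 (SE 0.54, adjusted p = 1.96e-05) and -1.15 for Serpinb5 (SE 0.32, adjusted p = 0.005) by edgeR. In these 4 genes the EoE and ESCC mice did not overlap, and the share of all genes without overlap was not computed. Stage markers moved with them: superficial markers were higher in EoE in 8 of 8 tested (median log2 5.67) and basal markers lower in 10 of 10 (median -3.03).

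Spink5 differed by 1.41 (SE 0.41, adjusted p = 0.00787 by edgeR), and this call was lost without EoE mouse 9 or 10 (log2 1.08 and 1.18), with DESeq2 (adjusted p = 0.127) and with all deposited cells (0.44, edgeR adjusted p = 0.444). EoE mouse 12, at 835 CPM, lay within the ESCC range (649.8 to 1023 CPM). Serpinb2 (1.38, SE 0.78, adjusted p = 0.154) and Serpinb3c (-0.01, SE 1.96, adjusted p = 0.997) were not called.

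The proteases that such inhibitors act on were measured beside them. Of 25 kallikreins and membrane serine proteases listed, 13 could be tested. In EoE 8 of them rose and none fell (median log2 1.22), beside 9.48% of all genes that rose and 25% that fell. Above the strip 2 of 9 rose in EoE, beside 9.93% of 3000 genes that rose and 20.1% that fell there. Among the 8 that rose over all EoE cells were Tmprss11d, a membrane protease of airway and squamous epithelium, and Klk13, a kallikrein. Their log2 fold changes were 2.47 (SE 0.65, adjusted p = 0.00451 by edgeR) and 1.31 (SE 0.50, adjusted p = 0.0402). In ESCC none rose and 5 fell (median -0.84), beside 17.8% of all genes that rose and 16.8% that fell. Above the strip 1 of 9 rose and 2 fell in ESCC, beside 15.7% of 3000 genes that rose and 12.1% that fell there. None of the 5 that fell over all ESCC cells met the rule for naming, which asks for groups without overlap. Between EoE and ESCC, 8 were higher and none lower in EoE, among them Tmprss11a (4.70), Tmprss11d (3.40) and Klk13 (2.56).

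The other inhibitors were mixed in EoE. Of 6 tested among the other clade B serpins, 2 rose and 1 fell, beside 9.48 and 25% of all genes. Serpinb11 (log2 2.31, adjusted p = 0.00732 by edgeR) and Serpinb3b, a relative of Serpinb3a (1.95, adjusted p = 0.0334), rose. Both fell outside the rule for naming and were chosen after their values were seen. The gene that fell was Serpinb10 (log2 -3.15, adjusted p = 0.00166 by edgeR, from 2 EoE UMIs). Of 9 tested among the remaining protease inhibitors, none rose and 5 fell (median -2.95), of which Wfdc2, Serpinh1 and Pebp1 rested on 1 or 2 EoE UMIs each. Serpinh1 encodes a collagen chaperone rather than a protease inhibitor. Cathepsin genes gave 1 call of 6, Ctsh, which was at 0 UMIs in EoE and at least 1.27-fold lower.

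In ESCC 3 of the 6 other clade B serpins fell and none rose, beside 16.8% of all genes that fell and 17.8% that rose, with Serpinb8 at -1.65 (adjusted p = 0.000311 by edgeR) and Serpinb1a, an inhibitor of neutrophil elastase, at -0.68 (adjusted p = 0.0139). Among the remaining inhibitors, Serpine2, which encodes the thrombin and urokinase inhibitor protease nexin, rose by 5.82 on the log2 scale (SE 0.45, adjusted p = 2.11e-11 by edgeR), from 3 UMIs over all controls to 519 in ESCC. Spint2, which encodes an inhibitor of membrane serine proteases, fell by 0.85 (adjusted p = 0.000514), and Wfdc2, a relative of Slpi, by 1.01 (adjusted p = 0.00426). Of the urokinase system 1 gene of 6 could be tested and was not called, and proteases of neutrophils and mast cells were at 0 UMIs in every mouse.

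Genes with the most similar profiles differed between the members. Over 26 sums of 1 mouse and class (17 control and 9 ESCC), log2 CPM of Serpinb3a was closest to that of Crabp2, a retinoic acid binding protein (Pearson's r 0.96), and Serpinb12 to Fam25c and Cnfn, a cornified envelope gene (both 0.96). Spink5 was closest to the connexin gene Gjb2 and to Fabp5 (both 0.96), and Slpi to Sprr1a (0.93) and the kallikreins Klk13 (0.88) and Klk10 (0.86). Serpinb5 was closest to Cnfn (0.92), and Serpinb2 to Emp2 (0.89). Serpinb3c was closest to Slpi (0.83). These values describe 3293 genes over sums that share mice, classes and depth, and among the members Serpinb3a and Serpinb12 were the closest pair (0.93) while Serpinb2 and Slpi had 0.25.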

How the data were processed

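Per the labels and the study's methods, the authors extracted barcodes with UMI-tools 1.0.0, aligned reads with STAR 2.7.3 to GRCm38, assigned them to genes with featureCounts, filtered cells in Seurat and deposited 1500 cells per condition as raw UMI counts per gene and cell, with no normalization. Nothing in the sources used here says whether counting used strand.

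For each mouse the UMIs of its cells were added up. Sums were tested by quasi-likelihood in edgeR 4.0.16 under R 4.3.3, after filterByExpr and TMM scaling, with all 3 groups in 1 fit. Tests were two-sided, with Benjamini-Hochberg adjusted p-values over all genes tested and a threshold of 0.05. DESeq2 1.42.0 was an alternative. Each mouse was a replicate. Control cells were clustered in scanpy 1.11.5 (2000 variable genes, 50 components, 15 neighbors, Leiden resolution 1) without 53 inhibitor genes. Clusters within 0.3 of equal log10 Krt5 and Krtdap were called suprabasal, and each cell was classed by the majority among the 15 closest control cells of the other mice. Class sums needed 10 cells. Scrublet marked 2.73% of cells as doublets, which were kept and left out as an alternative. The procedure was checked on simulated counts.

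The 7 genes, the gene lists and the tests were chosen with earlier results of these data known. Beyond the 7 genes, the text names up to 3 genes per list, condition and direction with the largest log2 fold change among those called, with a mean log2 CPM of 5 or more and no overlap between mice, and the 3 genes most correlated with a member, of which the closest are printed. All sample columns were used. No sequence is given for Spink5.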

Additional observations from a re-analysis of the deposited data

Results flagged for a closer look

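Control mouse 4 stood apart from the other controls in several of the genes. By the gap to its nearest neighbor over the range of the group (Dixon's test at 95%), it was an outlier in Serpinb3c over all cells (325 CPM), above the strip (695.8 CPM), in suprabasal cells (249.8 CPM) and in basal cells (34.28 CPM). It was also an outlier in Slpi in suprabasal (281 CPM) and basal cells (85.7 CPM), and in basal cells in Serpinb12 (79.98 CPM) and Serpinb3a (57.13 CPM). In EoE, mouse 11 stood apart in Serpinb3c at 320.3 CPM, which is 2 UMIs. Of 35 groups tested, 9 held such a sample. Chance flags about 1 group in 20, but 8 of the 9 are 1 mouse in genes that vary together, and for Serpinb3c and Slpi in basal and suprabasal cells the other controls were all at 0 UMIs, so these do not count as separate observations. The basal cells of mouse 4 also had the most Krtdap (617 CPM against 35.6 to 239 CPM in the other controls), superficial markers (388.5 against 30.7 to 89.1 CPM) and suprabasal markers (11872 against 5416 to 9452 CPM), and the part of these in the levels was not tested.

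The ESCC effect on Spink5 differed between classes by a test of the difference itself: it was -2.71 on the log2 scale above the strip relative to basal cells (SE 0.34, edgeR adjusted p = 4.72e-08), with all 3 ESCC mice above all controls in both classes.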

How the results depend on the processing

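Over the alternatives run, the 37 values called for single genes kept their direction in all 606 refits, and none reversed. Of all 1056 refits of a gene, 971 stayed on the same side of the threshold, 52 lost a call and 33 gained one. The direction was kept in 1020 of the 1056, and those that changed it were called in neither fit. In EoE, DESeq2 called 3 genes in place of 5. In ESCC, RLE size factors called 3, DESeq2 2 and UMIs thinned to the lowest total 2, in place of 5. Between old and young controls, no filter on low counts gave 1 call in place of 0. Between suprabasal and basal control cells, leaving out the mouse block gave 3 calls and Leiden resolution 1.5 gave 1, in place of 5. At resolution 0.5, which left no suprabasal cluster, ESCC cells above the strip gave 1 call in place of 2, and the difference between classes 2 in place of 1. Leaving out each mouse in turn gave 4 to 5 calls in EoE, 1 to 6 in ESCC, 4 to 6 between EoE and ESCC, 5 to 7 and 3 to 6 for control cells above the strip and suprabasal cells, 1 to 3 in ESCC basal cells, 1 to 3 in suprabasal cells and 0 to 2 above the strip, 2 to 5 in EoE above the strip and 1 to 3 for the difference between classes. The cause of these changes was not tested, except that fewer samples and UMIs were used. No paired analysis was possible because the groups share no replicate numbers. Joint clusters held no ESCC cells above the strip. After seeing the data, 3 alternatives were added: each barcode of a mouse used once, library 1 of each mouse, and control mice 2 and 3 left out. With library size alone in place of TMM, the genes called higher and lower were 759 and 1437 in place of 1046 and 985 in ESCC (1313 and 761 with RLE), 374 and 944 in place of 603 and 537 in ESCC basal cells, 179 and 332 in place of 245 and 203 in suprabasal cells, 348 and 577 in place of 471 and 364 above the strip, 891 and 1296 in place of 687 and 1753 between EoE and ESCC, and 617 and 1119 in place of 807 and 824 above the strip in controls. Depth limits EoE most.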
